A study of Mus musculus with 4 samples.

Results

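Transcripts of genes that act in fetal growth were examined in the spleen of 5-day-old mice whose dams had been given, into the nose, carbon black nanoparticles (CB-NP), ultrafine particles of nearly pure carbon. The set was given by name and holds 10 genes: the growth factor gene Igf2 and its neighbour H19, the RNA-binding protein genes Igf2bp1, Igf2bp2, Igf2bp3 and Lin28b, and the imprinted genes Dlk1, Mest, Peg3 and Plagl1. Array probes were assigned through RefSeq accessions, which gave 18 probes for 9 of the 10 genes, of 20280 genes with a matched probe in all. H19 had no probe under the accessions of the RefSeq table used and is not analysed here, which does not mean that the array lacks a probe for it. All 18 probes were well above background on all 4 arrays.

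The animals were ICR mice, an outbred stock. CB-NP dams had received 95 microg/kg of the particles by intranasal instillation on gestational day 5 and again on day 9, and control dams distilled water at 1 mL/kg on each occasion. Spleen RNA was pooled within the male CB-NP, male control, female CB-NP and female control groups, and each pool was read on 1 single-colour (Cy3) array, so that no group had a replicate and no difference within a sex could be set against a spread between pools. The number of animals and litters in a pool was not given in the sources used here. Since the 4 arrays shared 1 slide with a position for each group, position and group cannot be told apart. Between 57.29% and 59.01% of the non-control spots of an array were well above background, and none was saturated. The spleen label was checked with 9 marker genes, among them the spleen patterning gene Tlx1 and the red pulp macrophage gene Spic, and 9 of 9 were well above background on every array. In whole spleen, fewer cells of a type and less RNA per cell cannot be told apart.

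Imprinted genes are expressed from the copy inherited from 1 parent, and many of them set the rate of fetal growth. Igf2 is expressed from the paternal copy and drives growth of the fetus and placenta, and the RNA of H19 is made from the maternal copy of the same domain. The Igf2bp proteins bind Igf2 mRNA and many other mRNAs and are mainly fetal proteins. Lin28b blocks the maturation of the microRNA family let-7, and in mouse blood-forming cells Lin28b and Igf2bp3 are part of a fetal program that gives way after birth. Dlk1, Mest, Peg3 and Plagl1 are expressed from the paternal copy, and most of these genes are shut down in many tissues in the weeks after birth.

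The let-7 sequences are shown because Lin28b is known to act on them, with the seed (bases 2 to 8) in capitals. Of 11 let-7 family sequences in RefSeq (GRCm38.p6), miR-98 among them, 10 share the seed GAGGUAG, and the seed of let-7j differs.
mmu-let-7a-5p: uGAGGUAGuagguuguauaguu
mmu-let-7g-5p: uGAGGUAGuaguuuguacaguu
mmu-let-7i-5p: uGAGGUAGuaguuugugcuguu
mmu-let-7j: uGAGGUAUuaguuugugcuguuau

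Besides let-7, 4 of the 10 genes contain microRNAs within their own span on the same assembly, 8 mature sequences in all. They are miR-335 in Mest, miR-483 in Igf2, miR-675 in H19 and miR-3063 in Igf2bp1. A sequence of each of the first pair is shown, again with the seed in capitals, and none of them was measured.
mmu-miR-335-5p: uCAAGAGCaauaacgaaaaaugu
mmu-miR-483-3p: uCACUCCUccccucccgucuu

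The promoters of Mest, Peg3 and Plagl1 are known to lie in regions whose maternal copy is methylated in the egg, at CpG dinucleotides. They are shown from 250 bases before to 50 bases after the start with every CpG in capitals (RefSeq, GRCm38.p6), for Mest at the start with the most CpG. Mest held 17, Peg3 13 and Plagl1 26 CpG in this window. Of the 10 genes, 8 were matched in the promoter table, and at the start with the most CpG 7 of the 8 held more than 8 CpG, the median over 27025 genes. The number ran from 8 in Lin28b to 47 in Igf2bp2. A CpG was found in 94.57% of all 32851 promoter entries, and DNA methylation was not measured.
Mest, chr6:30737800-30738099, plus strand: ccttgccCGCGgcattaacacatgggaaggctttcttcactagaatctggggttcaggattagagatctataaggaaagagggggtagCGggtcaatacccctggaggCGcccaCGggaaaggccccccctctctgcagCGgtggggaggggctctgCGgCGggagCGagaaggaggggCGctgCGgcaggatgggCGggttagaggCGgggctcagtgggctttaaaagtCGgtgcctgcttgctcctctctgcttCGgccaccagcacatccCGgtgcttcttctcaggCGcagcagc
Peg3, chr7:6730370-6730669, minus strand: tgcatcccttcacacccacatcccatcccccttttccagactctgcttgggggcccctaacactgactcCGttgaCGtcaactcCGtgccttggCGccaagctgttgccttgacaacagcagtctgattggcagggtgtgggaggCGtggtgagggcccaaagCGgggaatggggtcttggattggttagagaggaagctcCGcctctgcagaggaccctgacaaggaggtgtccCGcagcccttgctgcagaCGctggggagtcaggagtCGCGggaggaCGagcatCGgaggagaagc
Plagl1, chr10:13090582-13090881, plus strand: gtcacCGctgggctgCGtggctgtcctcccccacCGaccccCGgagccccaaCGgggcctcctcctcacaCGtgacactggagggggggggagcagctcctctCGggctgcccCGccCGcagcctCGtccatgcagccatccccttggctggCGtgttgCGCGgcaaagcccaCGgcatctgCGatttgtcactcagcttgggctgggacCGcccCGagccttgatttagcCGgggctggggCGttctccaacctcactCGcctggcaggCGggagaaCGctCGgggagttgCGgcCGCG

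Levels are given as log2 of the processed signal relative to the 75th percentile of each array, so that 0 is the level of that percentile and differences between groups are log2 differences. They were read from the probe of each gene with the highest mean signal. Levels of different probes are not comparable, since probes differ in how well they bind.

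The CB-NP pools differed little from their control pools in these 9 genes. In the male pair 8 of 9 genes lay below 0, between -0.41 for Igf2bp1 and 0.13 for Igf2bp3, with a median of -0.11. Over all 14182 genes compared in males the median was -0.02, and 54.82% lay below 0. In the female pair 5 of 9 genes lay below 0, between -0.38 for Igf2bp3 and 0.42 for Peg3, with a median of -0.06. Over all 14071 genes compared in females the median was -0.04, and 56.71% lay below 0. No gene of the set differed 2-fold in either sex. In males 0.86% of all genes did so, 0.353% higher and 0.508% lower in the CB-NP pool, and in females 1.09%, 0.661% higher and 0.434% lower. A count of 0 of 9 is near these shares.

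**Figure D1:**
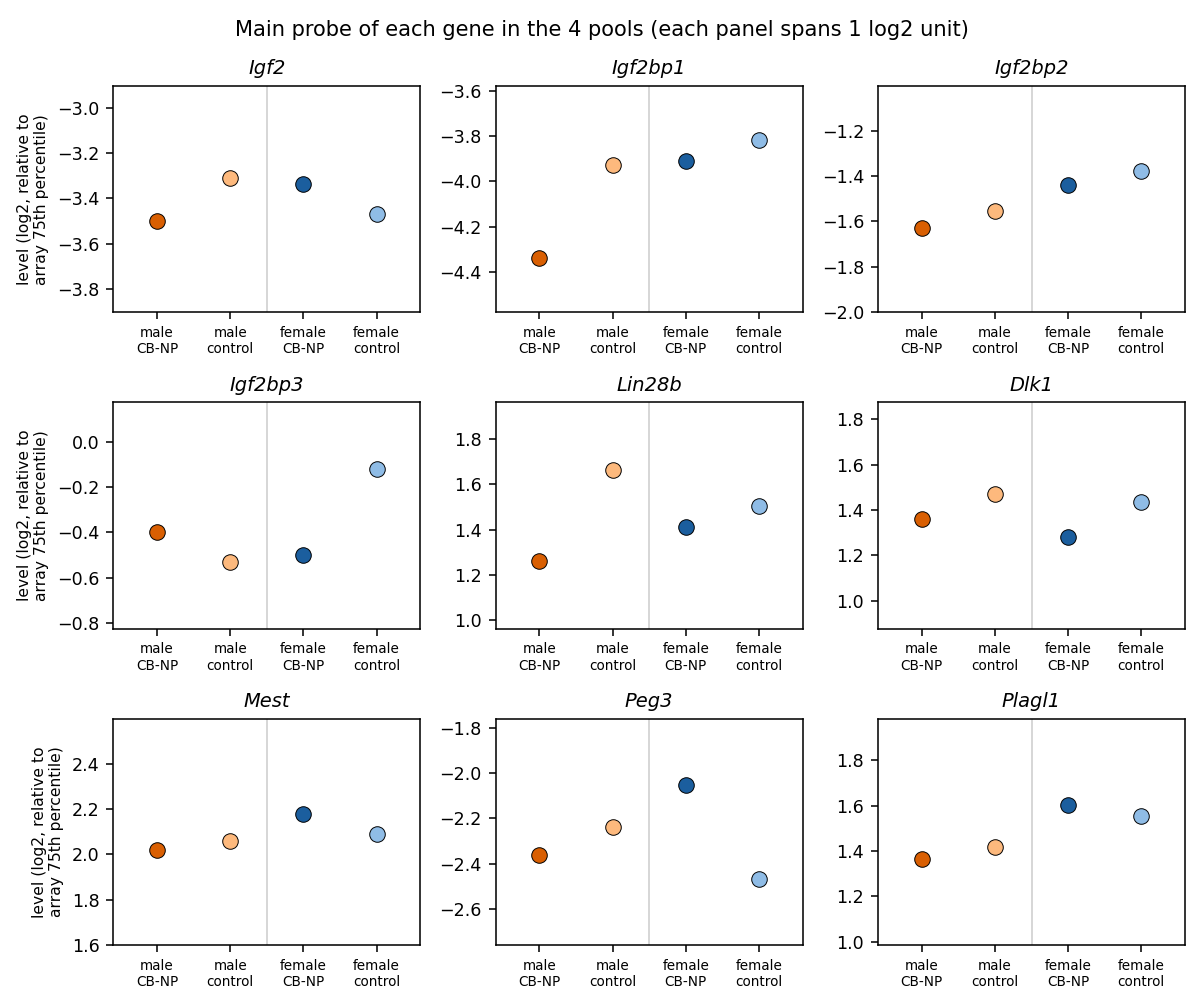
Level of the main probe of each of the 9 genes in the male CB-NP, male control, female CB-NP and female control pool, on the y axis as log2 relative to the 75th percentile of the array, 1 point per pool. Every panel spans 1 log2 unit, which corresponds to 2-fold, and the points of a panel lie within 0.16 (Mest) to 0.52 (Igf2bp1) of each other.

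Igf2, the fetal growth factor, was measured by 1 dim probe. Its level was -3.50 in the male CB-NP and -3.31 in the male control pool. It was -3.34 in the female CB-NP and -3.47 in the female control pool. The pairs went opposite ways, with a difference of -0.19 in males (scanner error 0.25) and 0.13 in females (scanner error 0.26), each within the error. The scanner error is the error that the scanner software gives for the processed signal, carried over to the difference, and covers no difference between animals. For bright probes it was nearly the same for every gene, about 0.20, and was not reduced where a probe had more spots. There it is a nearly fixed width and not a noise measured for that gene. The processed signal of this probe was 30.1 units in the male CB-NP and 33.8 in the male control pool, and 31.4 in the female CB-NP and 35.4 in the female control pool.

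Igf2bp1 is the first of the 3 Igf2bp genes, whose proteins bind Igf2 mRNA. Its level was -4.34 in the male CB-NP pool, against -3.93 in the male control pool, and -3.91 in the female CB-NP pool, against -3.82 in the female control pool. The male difference of -0.41 was 1.33-fold lower, with a scanner error of 0.33, and 4.35% of all genes lay lower in that comparison. The female difference was -0.09. Only 1 probe was matched, with signals of 16.8 units in the male CB-NP, 22.0 in the male control, 21.1 in the female CB-NP and 27.8 in the female control pool. With the normexp background correction, which treats low signals differently, the male difference was -0.10 and the female difference 0.12.

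Igf2bp2, the member of the trio best known from metabolic tissues, stood at -1.63 in the male CB-NP and -1.56 in the male control pool, and at -1.44 in the female CB-NP and -1.38 in the female control pool. The female pools were the higher of each treatment, and the CB-NP differences of -0.07 in males and -0.06 in females lay within the scanner error of 0.21. A less bright probe gave 0.13 and 0.17, so that the probes disagreed on the sign in both sexes.

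Igf2bp3, which acts with Lin28b in fetal blood formation in mice, differed between pairs. Its level was -0.40 in the male CB-NP and -0.53 in the male control pool, and -0.50 in the female CB-NP and -0.12 in the female control pool. The female control pool stood above the other three pools, which lay within 0.13 of each other. The female difference was -0.38 (1.30-fold lower, scanner error 0.20), with 8.52% of all genes lower. The male difference was 0.13 (scanner error 0.21). Between the control pools the gene was 0.41 higher in the female than in the male, a comparison that involves no exposure.

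Lin28b was lower in the CB-NP pool of both pairs. Its level was 1.26 in the male CB-NP and 1.66 in the male control pool. It was 1.41 in the female CB-NP and 1.50 in the female control pool. On this probe both CB-NP pools lay below both control pools. The difference was -0.40 in males (1.32-fold lower, scanner error 0.20), with 4.65% of all genes lower, and -0.09 in females (scanner error 0.20). A dim second probe gave -0.45 in males and -0.21 in females, the same signs, but on it the male CB-NP pool (-3.43) lay above the female control pool (-3.90). That probe differed by -0.92 between the female and male control pools, where the bright probe gave -0.16, and the mean over both probes was -0.54.

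Dlk1, a membrane protein of fetal and progenitor cells that restrains fat cell formation, was also lower in the CB-NP pool of both pairs, by differences within the scanner error. Its level was 1.36 in the male CB-NP and 1.47 in the male control pool, and 1.28 in the female CB-NP and 1.44 in the female control pool. The differences were -0.11 and -0.15 (scanner error 0.20 each), and a second probe gave -0.02 and -0.13. Both CB-NP pools lay below both control pools.

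Mest, a fetal gene for a protein of the hydrolase fold, had the most closely read level, since its probe was printed on 10 spots of each array. The mean level was 2.02 ± 0.07 in the male CB-NP and 2.06 ± 0.07 in the male control pool (SD over 10 spots). It was 2.18 ± 0.05 in the female CB-NP and 2.09 ± 0.07 in the female control pool. The male difference was -0.04, with a standard error over spots of 0.033. The female difference was 0.09, with a standard error over spots of 0.025. These errors describe the reading of 1 pool and not the spread between animals. Other Mest probes gave -0.03 and 0.11 in males and -0.06 and -0.20 in females, opposite in sign to the main probe in females. Over 399 probes printed more than 2 times, the median SD between spots was 0.0800 to 0.0860, depending on the array, below the scanner error of about 0.20 for a difference.

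Peg3, a zinc finger gene, was highest in the female CB-NP pool on its main probe. Its level was -2.36 in the male CB-NP and -2.24 in the male control pool, and -2.05 in the female CB-NP and -2.47 in the female control pool. The female difference was 0.42 (1.34-fold higher, scanner error 0.22), above 91.2% of all genes compared. The male difference was -0.13 (scanner error 0.21). A dimmer probe gave -0.61 in males and 0.36 in females, the same signs as the main probe. On it the male control pool (-3.87) lay above the female CB-NP pool (-3.96). The mean over both probes was -0.37 in males.

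Plagl1, a zinc finger transcription factor that regulates other imprinted genes in mouse, was about level between treatments. It stood at 1.37 in the male CB-NP and 1.42 in the male control pool, and at 1.60 in the female CB-NP and 1.55 in the female control pool. The differences were -0.05 and 0.05 (scanner error 0.20 each). On the main probe the female pools were higher than the male pools, by 0.24 with CB-NP and by 0.13 in controls. Of its 4 probes, the others gave CB-NP differences between -0.15 and 0.24 in males and between -0.31 and 0.58 in females. Their female minus male values lay between -0.12 and 0.31 with CB-NP and between -0.09 and 0.17 in controls.

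**Figure D2:**
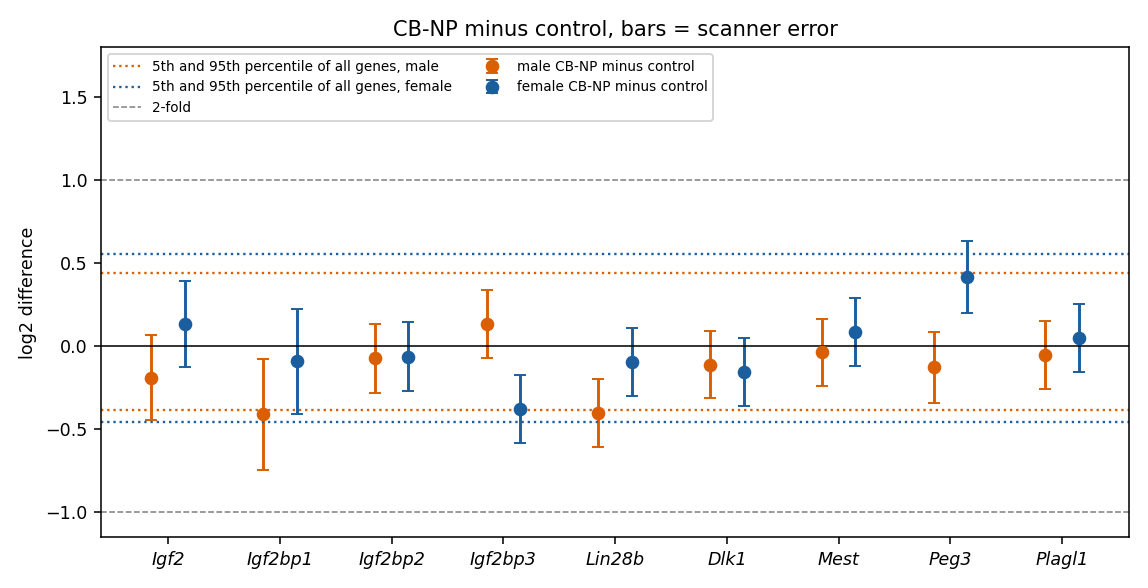
Log2 difference, CB-NP minus control, of the main probe of each of the 9 genes in the male and the female pair, with bars for the scanner error of the difference. Dotted lines mark the 5th and 95th percentile of all genes (-0.38 and 0.44 in males, -0.46 and 0.55 in females) and dashed lines 2-fold. Igf2bp1 and Lin28b lay below the 5th percentile in males and no gene lay outside these percentiles in females.

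**Figure D3:**
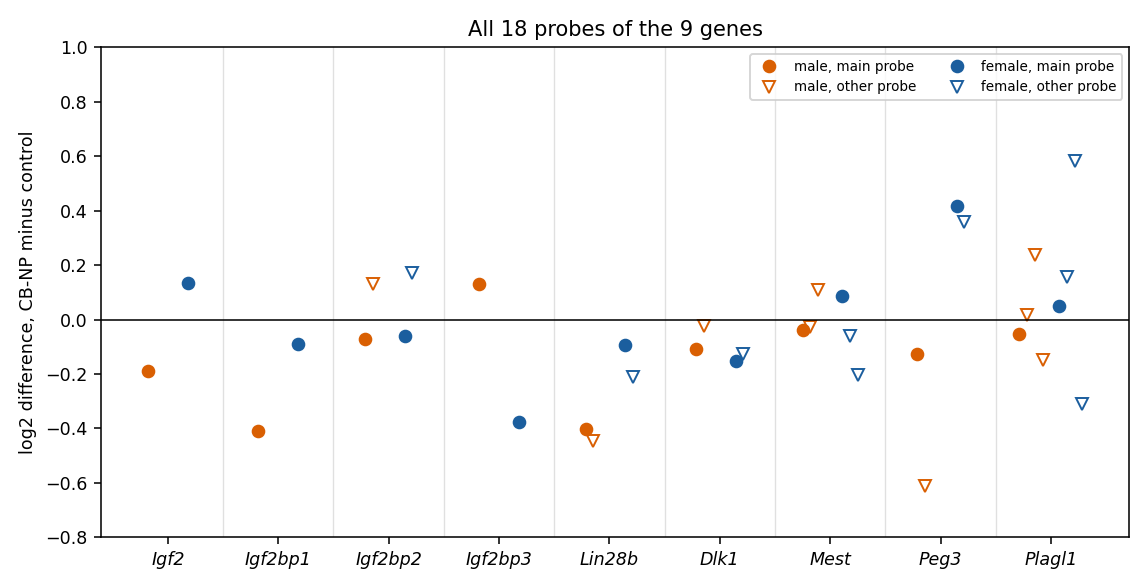
Log2 difference, CB-NP minus control, of all 18 probes of the 9 genes, with filled circles for the main probe and open triangles for other probes, in the male and the female pair. The probes of Lin28b, Dlk1 and Peg3 share a sign within each sex, whereas those of Igf2bp2, Mest and Plagl1, the other three genes with several probes, lie on both sides of 0 in both sexes.

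The male and female pairs share no array. Igf2bp1, Igf2bp2, Lin28b and Dlk1, 4 of 9 genes, lay below 0 in both, and none lay above 0 in both. Among 13929 genes compared in both pairs, 39.36% lay below 0 in both and 27.79% above 0 in both. The other five genes had opposite signs in the pairs, as did 32.83% of all genes. A difference larger than its own scanner error was seen for 2 of 9 genes in males (Igf2bp1 and Lin28b), against 30.88% of all genes. In females it was seen for 2 of 9 (Igf2bp3 and Peg3), against 44.4% of all genes. None of the 9 exceeded 2 times its scanner error in either pair, against 8.06% of all genes in males and 13.67% in females. For bright genes these counts rest on a nearly fixed cut-off, since their scanner error was about 0.20 throughout.

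To use both pairs at once, limma was fitted to 14498 genes, those well above background on 2 or more arrays. The model held treatment and sex, which left 1 degree of freedom for the residual, and p-values were adjusted over all genes by Benjamini-Hochberg. The residual of a gene came only from how far its male and female differences lay apart. Spread between animals and pools entered the residual only mixed with any difference in response between the sexes. With 1 pool in each group, limma could not tell them apart. It called 0.0828% of all genes at an adjusted p under 0.05 and 0 of the 9 genes. At an unadjusted p under 0.05, limma gave 0 of 9, and 13.77% of all genes. The fitted difference of Igf2bp1 was -0.25 and that of Lin28b -0.25 (limma, adjusted p = 0.416 for both), each below 0 in 2 of 2 pairs. With normexp the fitted difference of Igf2bp1 was 0.007 (limma, adjusted p = 0.987) and that of Lin28b -0.24 (limma, adjusted p = 0.330). Dlk1 was at -0.13 (limma, adjusted p = 0.502). The adjusted p of the other six genes in limma lay between 0.676 and 0.994. A p that misses the threshold does not show that these levels were equal.

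The sexes were also compared within each treatment. Between female and male controls the 9 genes differed by -0.23 (Peg3) to 0.41 (Igf2bp3), with a median of 0.03, and none was 2-fold apart, where 0.777% of 14160 genes were (0.254% higher and 0.523% lower in females). Between the female and male CB-NP pools 7 of 9 genes lay above 0 on their main probes, from -0.10 for Igf2bp3 to 0.43 for Igf2bp1, with a median of 0.16. Other probes lay below 0 for Lin28b (-0.69) and Mest (-0.14 and -0.03). Those of Plagl1 were at 0.31, 0.25 and -0.12, and those of Igf2bp2 (0.22) and Peg3 (0.53) lay above 0. This comparison was not repeated under the processing alternatives. Of 14103 genes in that comparison, 42.96% lay above 0, the median was -0.02, and 0.659% were 2-fold apart (0.39% higher and 0.269% lower in females), against 0 of the 9.

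Among other imprinted genes, 33 of 44 with a probe were compared in the male pair and 32 in the female pair, and none was 2-fold different in either. In males 18 lay above and 15 below 0 (median 0.01), and in females 13 above and 19 below (median -0.07). The brightest were Gnas, which encodes a G protein subunit (-0.06 in males and -0.15 in females), and the membrane protein gene Cd81 (-0.02 and -0.13). Meg3, the maternally expressed RNA of the Dlk1 domain, had levels of 1.63 in the male CB-NP and 1.49 in the male control pool, and of 1.78 in the female CB-NP and 1.13 in the female control pool. Its differences were 0.14 and 0.66, both above 0, where those of Dlk1 were below 0. In limma Meg3 had an adjusted p of 0.39. The growth inhibitor gene Cdkn1c was at -0.15 and 0.11.

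Named after their values were seen, the adaptor gene Grb10, a maternally expressed inhibitor of growth factor receptors, had a female difference of 0.75 and a male difference of -0.21. Its level was 0.18 in the female CB-NP and -0.57 in the female control pool, and 0.06 in the male CB-NP and 0.27 in the male control pool. The female control pool was the lowest of the 4, as it was for Meg3 and for Airn, the antisense RNA of the Igf2r domain (-0.19, beside 0.47 in the female CB-NP, 0.02 in the male CB-NP and 0.05 in the male control pool). Kcnq1ot1, the long RNA of the Kcnq1 domain, was at 0.27 in males and 0.63 in females. Also named after their values were seen were Mcts2 (-0.60 in males and -0.51 in females), Kcnq1 (-0.92 and 0.20) and Asb4 (0.82 and 0.32). The probes of Kcnq1 and Asb4 were dim. In the male CB-NP and male control pools Kcnq1 had signals of 11.0 and 20.5 units (scanner error of the difference 0.36). Asb4 had 54.2 and 30.2 units there (0.25). The genes of this paragraph are a selection, and 19 of the 32 listed genes compared in females lay below 0.

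Among the ligands, receptors and binding proteins of the IGF system, 15 of 19 were compared, with 11 above 0 in males (median 0.13) and 10 in females (median 0.13), and none was 2-fold different. Igf1, the postnatal counterpart of Igf2, was at -0.16 and 0.16. Igf1r, the receptor that signals for both ligands, was at 0.10 and -0.17, and Igf2r, which clears Igf2, at 0.13 and 0.09. The brightest of the list were the signalling adaptor gene Irs2 (-0.19 and -0.24) and the protease gene Htra1 (0.27 and 0.37).

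In the Lin28 and let-7 pathway 20 of 21 genes were compared, and none was 2-fold different. The list lay evenly around 0 in males (10 above and 10 below, median 0.01) and mostly below in females (6 above and 14 below, median -0.08). Lin28a, the close relative of Lin28b, was at 0.14 in males and -0.49 in females. Its level was -0.60 in the female CB-NP pool, against -0.11 in the female control pool, while the male CB-NP pool stood at -0.11 and the male control pool at -0.25. Hmga2, a chromatin gene that let-7 represses, was at -0.07 and -0.19, and Hmga1, the brightest of the list, at -0.005 and -0.06. Hmgb1, the next brightest, was at -0.13 and -0.10. Among 11 genes for partners and relatives of the Igf2bp proteins, 1 lay above 0 in males (median -0.09) and 5 in females (median -0.10). Actb, whose mRNA is bound by Igf2bp1, was at 0.05 and 0.26, and the RNA-binding protein gene Ybx1 at -0.21 and -0.22.

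**Figure D4:**
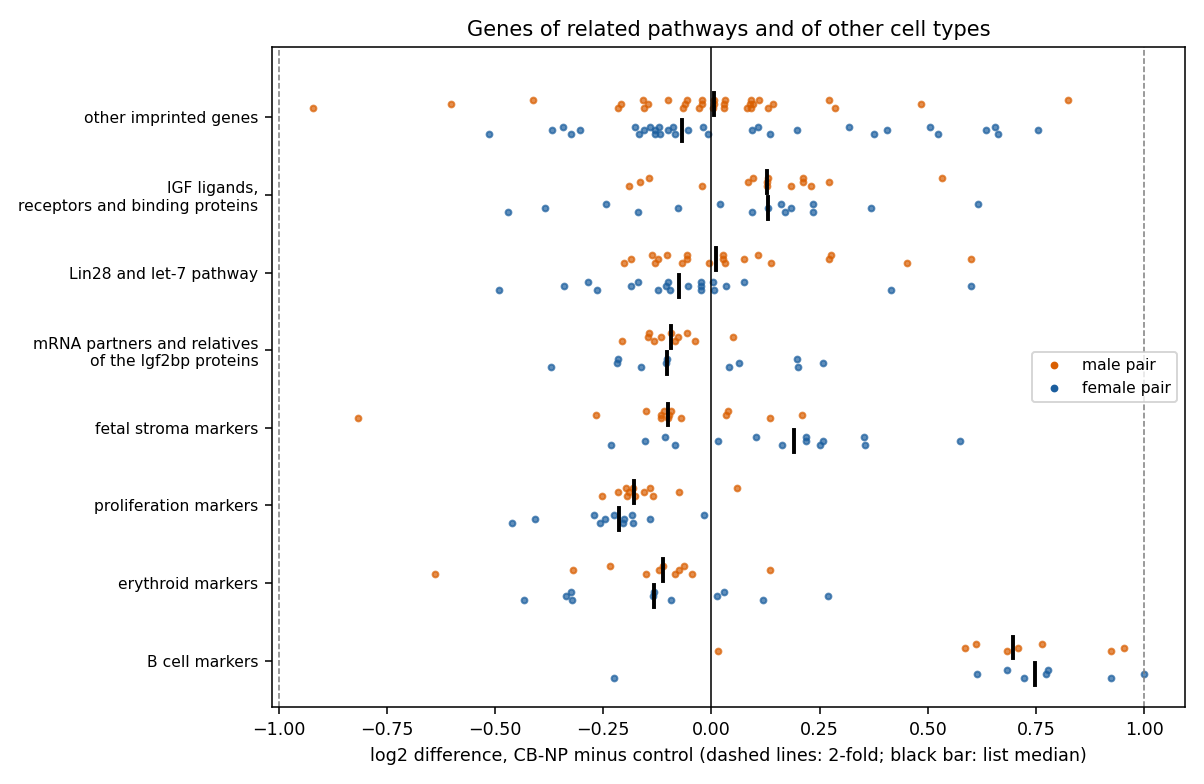
Log2 difference, CB-NP minus control, of each gene of 8 lists in the male and the female pair, 1 point per gene well above background on both arrays, with a black bar for the list median. Medians of the imprinted, IGF, let-7 and Igf2bp lists lie between -0.10 and 0.13, and those of the B cell markers at 0.70 and 0.75.

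Marker lists of other spleen cells are given beside these values, and their part in them was not tested. No gene of the proliferation, erythroid, B cell, B cell precursor, progenitor and T cell lists was 2-fold different in either sex. The scanner error of about 0.20 is that of a single gene and not of a list median. Of all genes compared, 54.82% lay below 0 in males and 56.71% in females. Proliferation markers lay below 0 in 11 of 12 genes in males (median -0.18) and in 12 of 12 in females (median -0.21), as with Mki67 (-0.18 and -0.02) and Birc5 (-0.18 and -0.20). Their summed level, in units of the array's 75th percentile, was 699 in the male CB-NP and 783 in the male control pool, and 714 in the female CB-NP and 799 in the female control pool. Erythroid markers lay below 0 in 10 of 11 genes in males and in 7 of 11 in females (medians -0.11 and -0.13). The haemoglobin gene Hba-a1 (-0.04 and 0.27) and the band 3 gene Slc4a1 (-0.23 and 0.01) were below 0 in males and among the 4 genes above 0 in females. The summed level of the erythroid markers was 2319 in the male CB-NP and 2465 in the male control pool, and 2407 in the female CB-NP and 2149 in the female control pool. Most of each sum came from Hba-a1, so the sum follows that gene more than the list. B cell markers lay above 0 in 8 of 8 genes in males and 7 of 8 in females (medians 0.70 and 0.75), as with Cd79b (0.71 and 0.77) and Ms4a1 (0.92 and 0.61). Their summed level was 98.7 in the male CB-NP and 58.8 in the male control pool, and 91.2 in the female CB-NP and 55.4 in the female control pool. For B cell precursor markers the median was 0.20 in the male pair, with 4 of 7 genes above 0, and -0.58 in the female pair, with 2 of 6. With the mean over all probes of a gene the male median turned to -0.11, and with normexp the female median was -0.28. Among these genes Cd93 was at 0.21 and 0.34 and Vpreb1 at -0.11 and -0.48. Progenitor markers had medians of 0.11 and 0.31, with Myb at 0.07 and -0.09 and Cd34 at 0.11 and 0.38. T cell markers had medians of 0.10 and 0.59, with Lck at 0.02 and 0.36 and Cd3d at 0.10 and 0.30.

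Neighbouring tissues in which Igf2, Dlk1, Mest or Peg3 are made were also followed. Fetal stroma markers, a list that includes Dlk1, had medians of -0.10 in males and 0.19 in females, with 4 of 14 and 10 of 14 genes above 0. The collagen gene Col1a2 was at 0.04 and 0.10 and the matrix gene Fn1 at -0.09 and -0.09. Without Dlk1 the summed level of this list was 244.7 in the male CB-NP and 251.6 in the male control pool, and 235.7 in the female CB-NP and 227.4 in the female control pool. Mesothelium markers had medians of -0.03 and -0.13, with Msln at -0.09 and 0.28 and Wt1 at 0.23 and -0.19. Their summed level was 12.35 in the male CB-NP and 12.2 in the male control pool, and 11.8 in the female CB-NP and 11.6 in the female control pool. Adipose markers, 4 of 8 compared, had medians of 0.09 and 0.11, with Lpl at 0.09 and -0.13 and Pparg at 0.07 and -0.26. Fabp4 was at 0.09 and 0.35 and Cfd at 0.34 and 0.36. Adipoq, Lep and Cidec were not well above background on any array, and Plin1 was so only in the male control pool. Liver markers, 4 of 8 compared, had medians of 0.26 and 0.30. Alb, Apoa1 and Ttr were not well above background on any array, and Fgb was so only in the male control pool. Serpina1a was at 0.67 and 1.28, Afp at 0.33 and 0.49, Ahsg at 0.19 and 0.11 and Apoa2 at -0.06 and 0.03. The male median was 0.009 with normexp and 0.003 without a detection filter, and the female median 0.86 with the mean over all probes of a gene.

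Of 6 acinar enzyme genes of the pancreas that were compared, 5 were at least 2-fold lower in the CB-NP pool of each sex, and Cela1 was at 0.21 in males and -0.59 in females. The median of the 6 was -4.11 in males and -3.79 in females, and with normexp -2.20 and -2.25. The summed level of the list was 1.68 in the male CB-NP and 21.1 in the male control pool, and 1.69 in the female CB-NP and 17.4 in the female control pool. The chymotrypsinogen gene Ctrb1 was at -6.15 in males and -4.65 in females. The colipase gene Clps was at -5.07 and -3.64, Cpa1 at -4.73 and -3.93 and Cela3b at -3.49 and -4.43. Of 14 acinar genes, 6 were well above background in each CB-NP pool and 11 in each control pool. Islet genes summed to 0.398 in the male CB-NP and 3.36 in the male control pool, and to 0.981 in the female CB-NP and 0.661 in the female control pool, with Ins2 at -3.44 and 0.44 and Chga at -1.12 and 0.49. Beside these values Dlk1, which is also made in the pancreas, differed by -0.11 and -0.15, and Igf2 by -0.19 and 0.13. Eosinophil genes, 6 of 6 at least 2-fold lower in both sexes, had medians of -2.46 and -2.23 (-1.66 and -1.83 with normexp), with Prg2 at -3.33 and -2.36, Ear6 at -3.16 and -2.61, Epx at -3.06 and -2.55 and Prg3 at -1.87 and -2.09.

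For the 3 genes with the widest range over the 4 pools, the genes with the most similar profile were sought among 13928 others well above background on all 4 arrays, by the Euclidean distance between profiles centred on their own mean. Nearest to Igf2bp1 were Tnni1 (distance 0.06), Casq2 (0.07) and Cdh12 (0.08), and 11 genes lay within 0.1. Tnni1 differed by -0.48 in males and -0.08 in females. Nearest to Peg3 were Shroom1 (0.02), H2-DMb1 (0.03) and Irx4 (0.05), with 56 genes within 0.1, and nearest to Igf2bp3 were Asah1, Ramp1 and Pts (0.03 each), with 79. With 4 pools, such likeness is a description of these arrays.

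**Figure D5:**
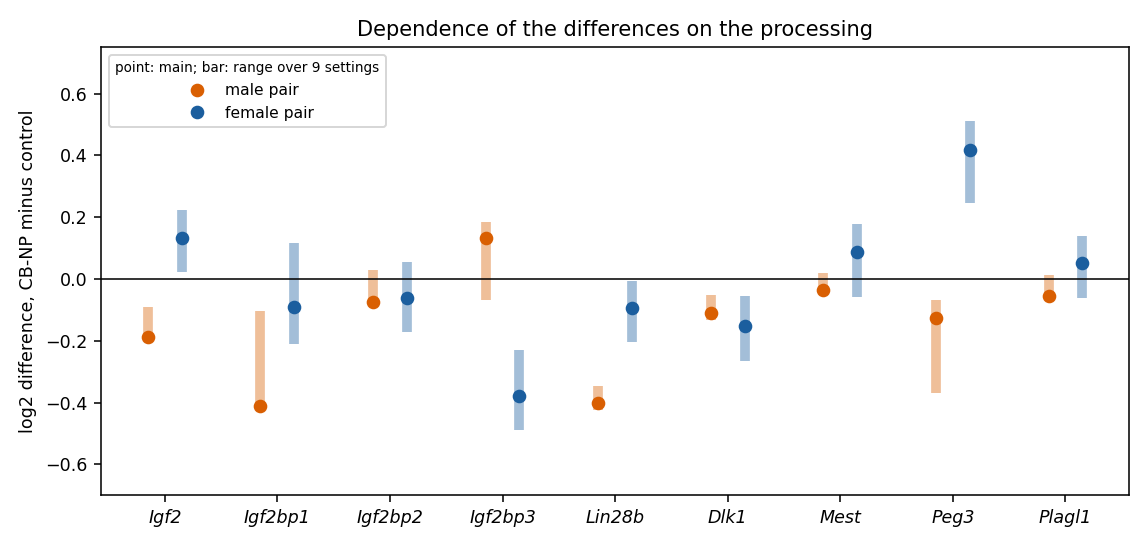
Log2 difference, CB-NP minus control, of the 9 genes in the male and the female pair, with a point for the main setting and a bar for the range over 9 settings (the main one and 8 alternatives). In males Lin28b stays between -0.42 and -0.35 and Igf2bp1 spans -0.41 to -0.10, and in females Peg3 spans 0.25 to 0.51 and Igf2bp3 -0.49 to -0.23.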

How the data were processed

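Spleen RNA pools were read on 1-colour arrays of design 028005 (build mm9) and quantified in Feature Extraction (Agilent) version 10.10.1.1, per the file headers. Per the file headers, the deposited processed signal is an intensity after background subtraction and spatial detrending, with no normalization between arrays. Other deposited columns are its error, the raw intensity of spot and background, and flags. The authors' deposited value table, an intensity, was the processed signal multiplied on each array by a constant of its own (3.18, 3.10, 3.49 and 2.64 for male CB-NP, male control, female CB-NP and female control), with column medians of 76.1, 75.2, 79.4 and 68.9. The target of that scaling is unknown.

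For each array, log2 of the processed signal was taken relative to its 75th percentile over 59305 spots, controls left out. Spots of a probe were averaged without those marked as outliers. Of 55681 probes, 26756 were matched to 20280 genes by RefSeq accession (GRCm38.p6, names only) and 28925 were not. A gene was represented by its brightest probe and compared when well above background on both arrays. Differences within a sex have no test and were counted at 2-fold. The shared effect of CB-NP was tested with limma 3.58.1 in R 4.3.3 (sex as a term, Benjamini-Hochberg at 0.05), checked on simulated data; other steps used Python 3.11.15 and pandas 2.3.3. The files hold a median-pixel signal, which took the place of the mean-pixel signal in the normexp alternative (offset 50). The genes, lists and tests were chosen with earlier results of these data known. List genes are named when 2-fold different in a sex (up to 4) or otherwise as the 2 brightest, beside 8 genes fixed by name, of which Rian had no matched probe. Other list genes named in the text fall outside that rule, among them Tlx1, Spic, Fabp4, Cfd, Afp, Ahsg, Apoa2, Cela1 and the undetected markers. Precision is limited by having 1 array in each group.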

Additional observations from a re-analysis of the deposited data

Results flagged for a closer look

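For 5 of 9 genes the male and female pairs went opposite ways, as they did for 32.83% of all genes, and the difference between the sexes was not tested. The female minus male value of the CB-NP difference was 0.54 for Peg3, -0.51 for Igf2bp3, 0.32 for Igf2, 0.12 for Mest and 0.10 for Plagl1. For Peg3 both probes went opposite ways in the sexes. For Igf2, Mest and Plagl1 both differences lay within the scanner error.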

How the results depend on the processing

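No gene of the set reached 2-fold in the male, female or control-sex comparison under the main setting or any of 8 alternatives, and limma called 0 of 9 under the main setting and 9 alternatives (lowest adjusted p 0.214, for Lin28b). At an unadjusted p under 0.05 limma gave Igf2bp1 with quantile normalization, with 13.63% of all genes, and Lin28b with an intensity trend, with 21.62% of all genes. Below 0 under all 9 settings were Igf2, Igf2bp1, Lin28b, Dlk1 and Peg3 in males and Igf2bp3, Lin28b and Dlk1 in females, and above 0 under all 9 were Igf2 and Peg3 in females. The other eight values changed sign under at least 1 alternative. With median centring the median over all genes moved by -0.11 in the female pair and 0.12 between controls. Over all genes, limma called 12 in the main setting, 612 with normexp, 347 with median centring, 374 with an intensity trend, 3 with quantile normalization, 3 with cyclic loess, 2 with the authors' scaling, 0 without a detection filter (1363 at an unadjusted p under 0.05) and 0 with the requirement of detection on all 4 arrays (2111 unadjusted). List genes at least 2-fold in either sex numbered 0 in the pathway lists, and 6 without a detection filter. Genes at least 2-fold higher and lower were 50 and 72 in males and 93 and 61 in females, moving to 11 and 24 and to 20 and 30 with normexp, to 430 and 669 and to 650 and 455 without a detection filter, and to 69 and 61 and to 140 and 50 with the authors' scaling. The female split was 65 and 88 with median centring and 77 and 79 with quantile normalization. Between controls it was 36 and 74, moving to 9 and 6 with normexp, 57 and 46 with median centring, 51 and 54 with quantile normalization, 48 and 54 with cyclic loess and 415 and 621 without a detection filter. The causes of these moves were not tested. Beyond the sex term in limma no pairing was possible, because each group had 1 pool. No pool could be left out of a group of 1, and with 1 slide there was no slide block. Dim probes, as of Igf2 and Igf2bp1, have the largest scanner errors.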
